A study of Mus musculus with 6 samples.

Results

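The matrix proteases and inhibitors described here are 42 genes whose symbols start with Mmp (matrix metalloproteinases), Timp (tissue inhibitors of metalloproteinases), Adamts (secreted proteases with thrombospondin repeats) or Adamtsl (Adamts-like proteins) followed by digits. They were taken from 18193 genes that have a probe set naming them alone, and comprise 18 Mmps, 4 Timps, 15 Adamts genes with a protease domain and 5 Adamtsl genes. Each gene was read at its probe set with the highest mean over all lungs, and Mmp2 and Mmp19 at every probe set. The 42 genes have 78 probe sets, and other members of these families were not analysed here. Total RNA came from lungs dissected from mouse embryos at E16.5 (days after conception), on a mixed strain background, hybridised to single-channel Affymetrix arrays. One group was homozygous null for Hopx (Hopx -/-) and the other wild-type (Hopx +/+), with 3 biological replicates of each genotype and no treatment in either. How the null allele was made, and whether a sample was 1 embryo or a pool, is not given in the sources used here. Hopx, a small homeodomain factor that does not bind DNA itself, is a marker of type I cells of the alveolus, and the comparison asks what its loss does to the lung transcriptome.

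Mmps are zinc-dependent endopeptidases made as inactive proenzymes, held closed by a cysteine in the propeptide and opened by other proteases. Timps bind the active site of Mmps and, in the case of Timp3, also of Adam and Adamts proteases, so the activity in a tissue depends on enzyme and inhibitor together. In the fetal lung, turnover of collagen, versican and basement membrane accompanies branching and thinning of the mesenchyme between the air spaces, and mesenchymal Mmp2 and its membrane-bound activator Mmp14 are well known there. Adamtsl proteins share the Adamts accessory domains, lack the protease domain, and several bind microfibrils. The arrays measure RNA only, and therefore say nothing on the activation of these enzymes.

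Of the 42 genes, 9 lie in a cluster on chromosome 9, in the order Mmp13, Mmp12, Mmp1b, Mmp3, Mmp1a, Mmp10, Mmp8, Mmp20 and Mmp7 (order from assembly GRCm38.p6). Mmp27, between Mmp8 and Mmp20, was not analysed here, and 3 non-coding genes or pseudogenes also lie in the cluster. Several promoters of this cluster are known targets of AP-1, the Fos and Jun transcription factor, and the matches in the 250 bases before each start site are shown because most of these genes read low together on the arrays. The motif TGAGTCA, searched on both strands, was found in 7 of 11 RefSeq windows of these genes (63.6%). It was found in 0 of 19 windows of the other measured members and in 4.46% of 32851 windows of all genes. The 19 windows belong to 18 genes, and 15 of the 42 members, Mmp2 and Mmp19 among them, had no window and were not searched. The motif was chosen from this background knowledge, so its presence is a description of the sequence and not a result of the arrays. The stretches below are from RefSeq (GRCm38.p6), read 5′ to 3′ towards the start site on the strand given, with the motif or its reverse complement in capitals.
Mmp13, chr9:7272463-7272501, plus strand: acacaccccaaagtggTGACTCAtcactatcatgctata
Mmp12, chr9:7347314-7347352, plus strand: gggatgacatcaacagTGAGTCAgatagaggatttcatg
Mmp1b, chr9:7388097-7388135, minus strand: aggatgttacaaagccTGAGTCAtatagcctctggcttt
Mmp3, chr9:7445760-7445798, plus strand: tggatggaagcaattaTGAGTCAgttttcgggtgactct
Mmp1a, chr9:7464052-7464090, plus strand: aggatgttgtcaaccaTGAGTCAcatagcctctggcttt
Mmp10, chr9:7502263-7502301, plus strand: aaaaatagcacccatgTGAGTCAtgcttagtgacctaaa
Mmp7, chr9:7692011-7692049, plus strand: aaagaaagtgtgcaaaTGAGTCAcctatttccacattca
The match starts between 35 bases (Mmp13) and 93 bases (Mmp1b) before the start site. The stretches of the paralogs Mmp1a and Mmp1b are identical at 33 of 39 bases. The windows of Mmp8 and Mmp20 hold no match, and Mmp12 and Mmp7 each have a further window without one. The letters TATAAA, on either strand, occur in 7 of the 11 windows and in 12.4% of all windows.

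The deposited values are log2 expression. Across the 6 arrays the lower quartile was 4.24 to 4.29, the median 6.67 to 6.72 and the upper quartile 9.02 to 9.05, and correlations between arrays were 0.989 to 0.995. Array quartiles serve below only as a guide to brightness, since probe sets of different genes are not on a common scale. By limma's moderated test, Hopx in null lungs fell by 1.91 (SE 0.11, adjusted p = 0.0228) at 1 of its 2 probe sets. At the other it fell by 5.94 (SE 0.17, limma's adjusted p = 0.000375), both on the log2 scale and below every wild-type lung. The adjustment was Benjamini-Hochberg over 45037 probe sets. The first probe set still read 10.35 to 10.64 in null lungs, above the upper quartile of the arrays, and the second 4.59 to 4.96. Of the defining lung epithelial genes, surfactant protein C, Sftpc, read 13.72 to 13.82 over the lungs. The lung regulator Nkx2-1 read 7.38 to 7.71 in null and 7.77 to 7.82 in wild-type lungs, a difference of -0.23 (95% interval -0.49 to 0.03). Sftpb had groups apart the other way, with a difference of 0.11. Of 7 distal epithelium markers, 3 had positive and 4 negative differences. The Y-linked gene Eif2s3y read 11.56 to 11.72 in wild-type replicates 2 and 3 and 2.89 to 3.13 in the other 4 lungs, so Y-linked signal is unequally shared between the genotypes. These 2 lungs also had the highest mean of 8 cartilage markers, 7.62 and 7.96, against 4.96 to 6.28 in the others. Of the 8 cartilage markers, 7 had lower means in null lungs, and Matn3 read below the lower quartile in all 3 null lungs and in wild-type replicate 1.

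No member passed the test. The 2 Hopx probe sets were the only calls, 0.00444% of all probe sets by the limma rule of an adjusted p under 0.05, and 0 of 42 members were called in either direction. The smallest adjusted p among members was 0.878. Without adjustment, 5 members had a p under 0.05, Mmp2, Mmp19, Mmp10, Adamts7 and Adamtsl3, against 4.54% of all genes. Differences (null minus wild-type) were positive in 26 members and negative in 16, with a median of 0.06 against 0.01 over all genes, of which 52.2% were positive. The 2 groups did not overlap at 8 members, 7 higher and 1 lower in null lungs, a share of 19%. Over all genes the share was 10.5%, with 6.21% higher and 4.31% lower. Of the 7 higher members, Mmp10 and Mmp1a had means below the lower quartile. Among members above the median the share was 24%, against 11% of such genes. Over all 78 member probe sets it was 14.1%, with 8 higher and 3 lower, against 10.1% of all probe sets. Mmp2 and Mmp19 are among the 8 members and had been singled out with these differences known, so the count is a description. The median difference was 0.13 without Hopx-null replicate 1 and 0.03 without Hopx-null replicate 3.

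**Figure D1:**
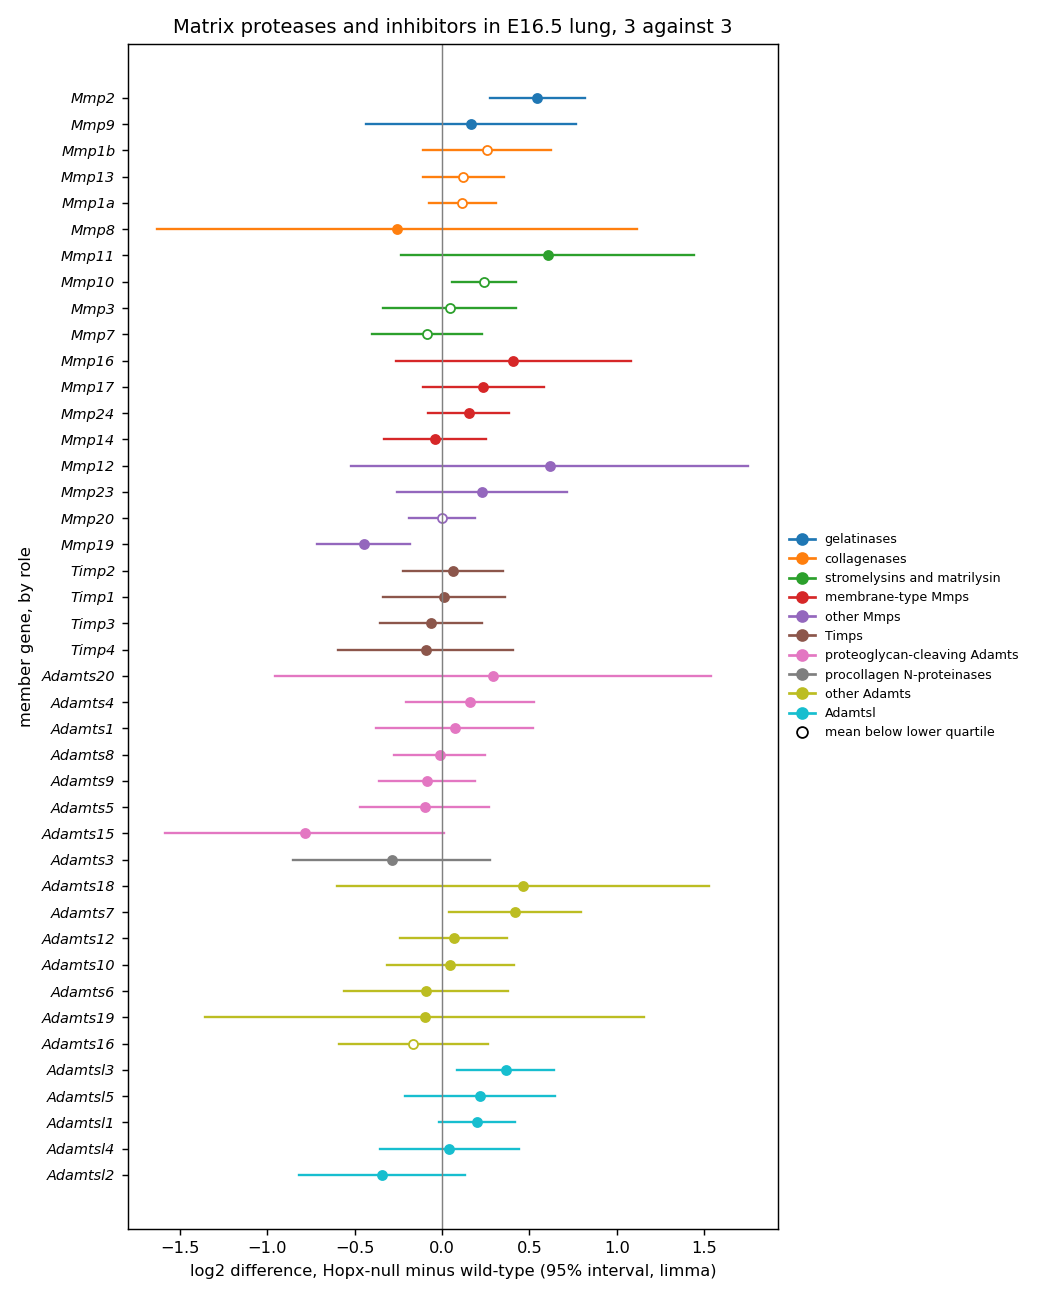
Log2 difference between Hopx-null and wild-type lungs for each of the 42 genes, grouped by role, with 95% intervals from limma (n = 3 lungs per genotype). Intervals cross 0 for all but Mmp2, Mmp19, Mmp10, Adamts7 and Adamtsl3, none of which passed over all probe sets, and open symbols mark 8 genes whose mean lies below the lower quartile of all probe set means.

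Gelatinases degrade denatured collagen and the type IV collagen of basement membranes. Mmp2 (gelatinase A) was higher in every null lung than in every wild-type lung at both of its probe sets. At the brighter probe set the null lungs read 12.48, 12.34 and 12.52 and the wild-type lungs 11.73, 12.06 and 11.92 in replicates 1 to 3. The group means were 12.45 ± 0.09 (SD, n = 3) and 11.90 ± 0.17 (SD, n = 3), a difference of 0.54 (95% interval 0.27 to 0.82), or 1.46-fold, with limma's adjusted p = 0.878. The dimmer probe set gave 11.19, 11.05 and 11.07 in null and 10.34, 10.71 and 10.64 in wild-type lungs, again a difference of 0.54 (95% interval 0.26 to 0.83). Wild-type replicate 1 was the lowest lung at both probe sets. That lung, like the null lungs, lacked Y-linked signal, and with the Y-linked mean as a covariate the differences were 0.73 and 0.77. The covariate fit in effect sets the null lungs against that single wild-type lung. Leaving out each lung in turn, the difference at the brighter probe set ranged from 0.46 to 0.62.

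Mmp2 is made mainly by mesenchymal cells. The mean of 6 fibroblast and mesenchyme markers was 10.11 to 10.40 in null and 9.92 to 10.77 in wild-type lungs, with 1 of 6 markers higher and 5 lower in null lungs and none below the lower quartile except Lum (lumican) in wild-type replicate 1, at 3.51. Lum and Dcn (decorin) spread most, with Lum at 3.51 to 6.83 and Dcn at 7.72 to 9.62 over the lungs. Pdgfra was the only marker with groups apart, by a narrow margin. It read 11.24 to 11.55 in null and 11.57 to 11.98 in wild-type lungs, a difference of -0.27 (95% interval -0.63 to 0.08). The markers did not share a lung order, since wild-type replicate 1 was lowest for Lum and Dcn and highest for Tbx4, at 11.38. The part of these cells in the Mmp2 values was not tested. In bulk tissue, fewer cells of a type and less RNA per cell cannot be told apart. Mmp9 (gelatinase B), which neutrophils store and many cells induce, read 8.29, 8.35 and 8.75 in null and 8.12, 7.93 and 8.84 in wild-type lungs. The groups overlapped, and the difference was 0.17 (95% interval -0.43 to 0.77), or 0.03 at its other probe set.

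Mmp19, a secreted Mmp that cleaves basement membrane proteins, was the only member, at the probe set chosen for each gene, that was lower in all 3 null lungs than in all wild-type lungs. Null lungs read 9.97, 10.13 and 10.07 and wild-type lungs 10.42, 10.40 and 10.69 at its brighter probe set. The means of 10.06 ± 0.08 (SD, n = 3) and 10.50 ± 0.17 (SD, n = 3) differ by -0.45 (95% interval -0.71 to -0.18), 1.36-fold, with limma's adjusted p = 0.878. At the dimmer probe set, below the median of the arrays, null lungs read 5.73, 5.46 and 5.84 and wild-type lungs 5.91, 5.83 and 6.22. Here Hopx-null replicate 3 lay just above wild-type replicate 2, so the groups overlapped, and the difference was -0.31 (95% interval -0.66 to 0.04). With the Y-linked covariate the differences were -0.37 and -0.23. The range over lungs left out was -0.50 to -0.35 at the brighter probe set. At the dimmer one it was -0.39 to -0.19, with -0.19 without wild-type replicate 3 and -0.20 without Hopx-null replicate 2.

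**Figure D2:**
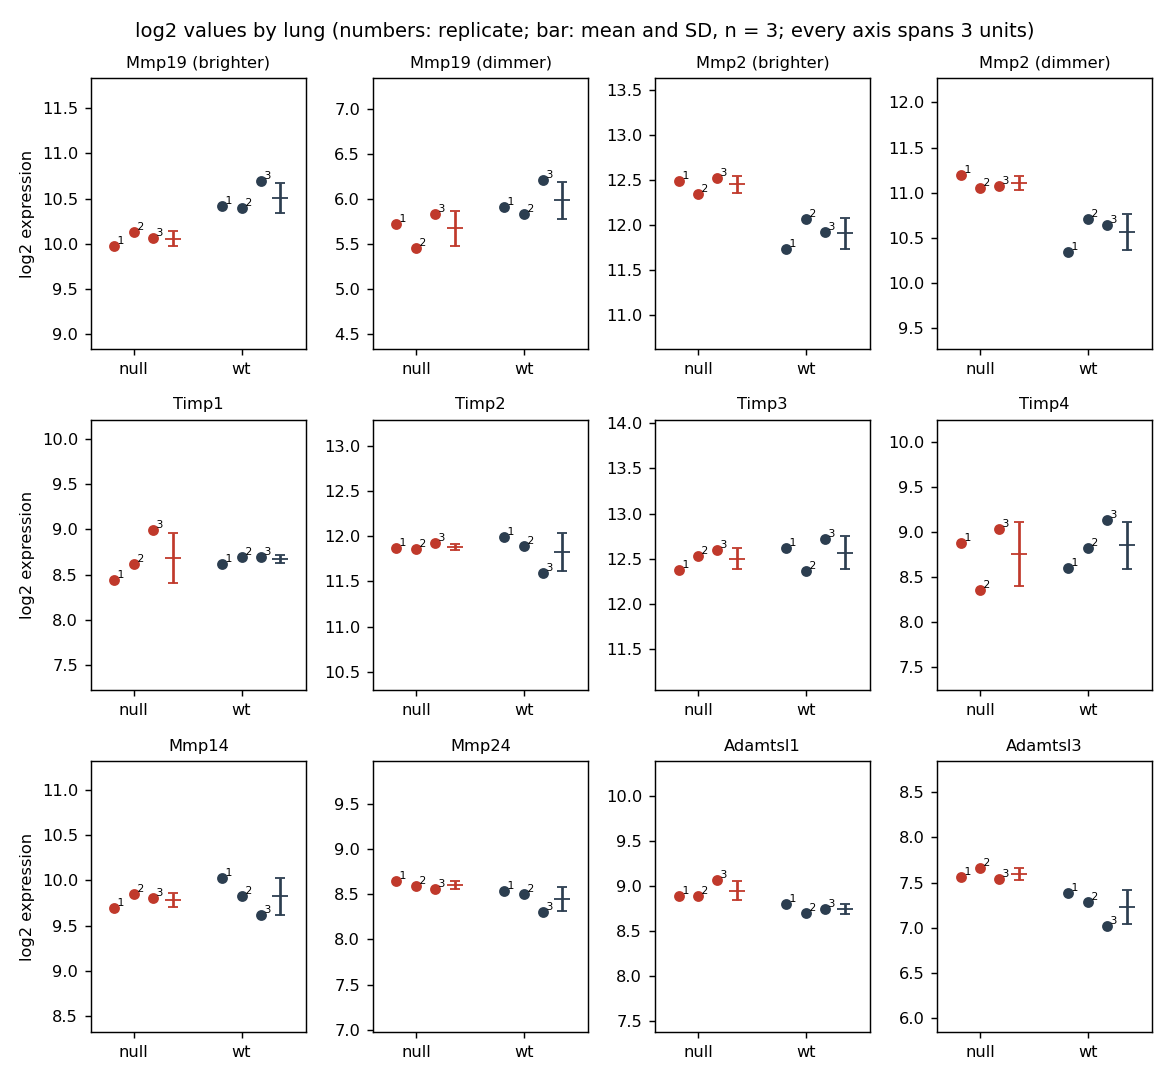
Log2 expression in each lung for both probe sets of Mmp19 and Mmp2, the 4 Timps, Mmp14, Mmp24, Adamtsl1 and Adamtsl3, with numbers giving the replicate and bars the mean and SD (n = 3). The groups are apart at both Mmp2 probe sets and at the brighter Mmp19 probe set, and the Timps and Mmp14 overlap.

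The inhibitors differed little. The 4 Timps had differences between -0.09 and 0.06, none with groups apart, and all read above the median of the arrays. Timp3, which binds to the matrix and inhibits the broadest set of enzymes, read 12.38, 12.52 and 12.60 in null and 12.62, 12.36 and 12.72 in wild-type lungs, a difference of -0.07 (95% interval -0.36 to 0.23). All 4 of its probe sets were slightly negative, down to -0.24. Timp2, which inhibits Mmp2 and, with Mmp14, also helps to activate it, read 11.87, 11.86 and 11.93 in null and 11.99, 11.89 and 11.59 in wild-type lungs. Its difference was 0.06 (95% interval -0.22 to 0.35), and its 6 probe sets ran from -0.13 to 0.20, with 4 positive and 2 negative.

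Timp1, an X-linked gene, read 8.44, 8.62 and 8.99 in null lungs, and the wild-type lungs lay within that range at 8.62, 8.69 and 8.69. The difference was 0.01 (95% interval -0.34 to 0.36), and wild-type replicate 1, which lacked Y-linked signal, differed by less than 0.1 from the other wild-type lungs. Timp4 read 8.88, 8.36 and 9.04 in null and 8.61, 8.82 and 9.13 in wild-type lungs, and differed by -0.09 (95% interval -0.60 to 0.41). The intervals of Timp1, Timp2 and Timp3 thus leave room for differences of up to 0.36 in size in these lungs, and that of Timp4 for 0.60. Signs of all 4 Timps turned with some lung left out.

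Membrane-type Mmps sit at the cell surface, where Mmp14 cleaves fibrillar collagen and converts proMmp2. Mmp14 read 9.70, 9.85 and 9.80 in null and 10.02, 9.83 and 9.62 in wild-type lungs, so the null lungs lay inside the wild-type range. The difference was -0.04 (95% interval -0.33 to 0.25), and -0.15 and -0.07 at its other probe sets. Mmp24 read 8.65, 8.60 and 8.56 in null and 8.54, 8.51 and 8.30 in wild-type lungs. The groups were apart by a narrow margin and the difference of 0.15 (95% interval -0.08 to 0.38) was 0.08 without wild-type replicate 3 and 0.06 with the Y-linked covariate. Its 2 dimmer probe sets gave -0.07 and -0.03. Mmp16 and Mmp17, both below the median of the arrays, differed by 0.41 and 0.24 with overlapping groups, and the other 3 probe sets of Mmp16 gave 0.10 to 0.23.

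In several of the members with the largest differences, a single wild-type lung lay apart. Mmp11 (stromelysin 3), which fibroblasts make near epithelium during remodelling, read 10.68, 10.52 and 10.38 in null and 10.34, 10.38 and 9.05 in wild-type lungs. The groups did not overlap only because Hopx-null replicate 3 and wild-type replicate 2 agreed to 2 decimals with the null lung on top. The difference of 0.61 (95% interval -0.23 to 1.44) was 0.17 without wild-type replicate 3 and 0.20 with the Y-linked covariate. Mmp12, the macrophage elastase, read 5.09, 6.13 and 5.31 in null and 5.76, 4.95 and 3.96 in wild-type lungs. Wild-type replicate 3 was again the lowest, and the difference of 0.62 (95% interval -0.52 to 1.75) was 0.15 without it, 1.05 without wild-type replicate 1 and 0.31 with Hopx-null replicate 2 left out. With the Y-linked covariate it was -0.26. The mean of 6 macrophage markers was 9.72 in that lung, 9.56 and 9.67 in the other wild-type lungs and 9.59 to 9.84 in null lungs, with 4 of 6 genes higher in null lungs and none below the lower quartile. The markers went both ways in wild-type replicate 3, where Csf1r was lowest of all lungs at 12.23 and C1qa and C1qb were highest at 6.98 and 11.85. Their part in the Mmp12 values was not tested.

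Mmp8, the neutrophil collagenase, varied most of all members between lungs of 1 genotype. It read 7.41, 8.15 and 8.80 in null and 8.05, 7.50 and 9.58 in wild-type lungs, with wild-type replicate 3 the highest. The difference of -0.26 (95% interval -1.63 to 1.12) became 0.34 without that lung. Of 7 neutrophil markers 5 were higher and 2 lower in null lungs. Their mean was 9.17 to 9.68 in null and 9.20 to 9.44 in wild-type lungs, and the precursor marker Elane read 3.38 to 3.84 in every lung, below the lower quartile. S100a8, S100a9 and Mpo were highest in wild-type replicate 3, at 13.05, 13.43 and 6.79, but Camp was lowest there, at 8.82. Ngp, Ltf and Elane were at neither extreme in that lung. Of the 7 markers, only Mpo had the same lung order as Mmp8 within each genotype. The part of these cells in the Mmp8 values was not tested.

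**Figure D3:**
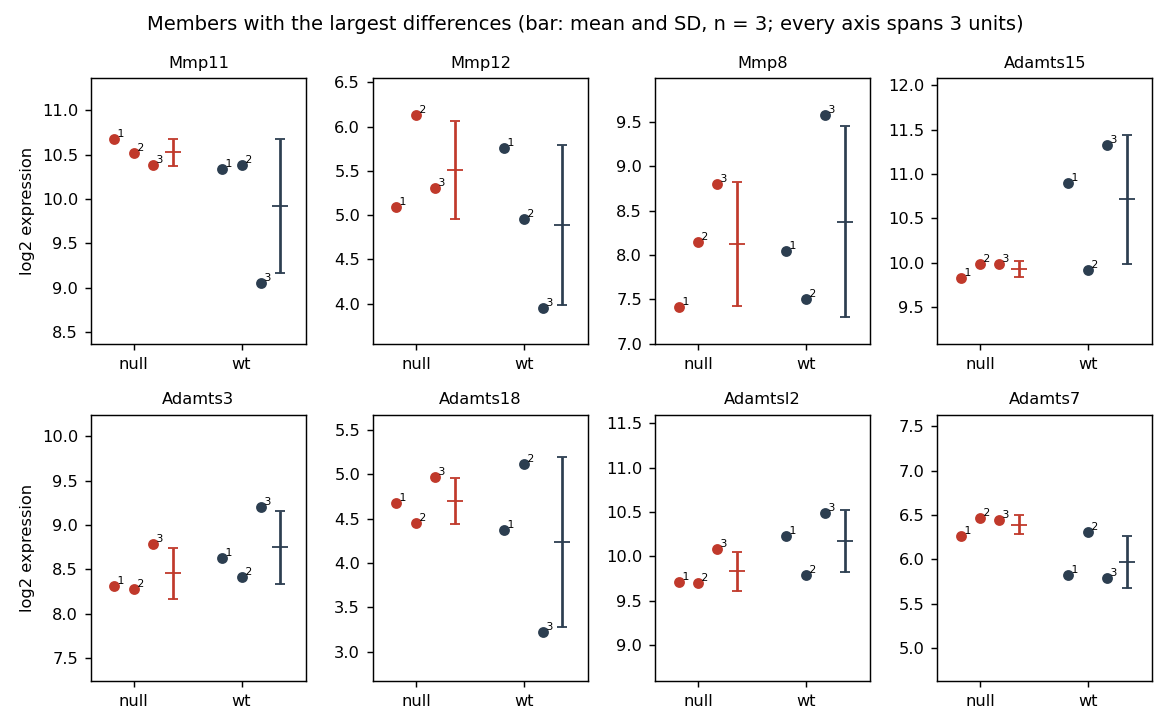
Log2 expression in each lung for 8 members with large differences, with numbers giving the replicate and bars the mean and SD (n = 3). Wild-type replicate 3 is the lowest lung for Mmp11, Mmp12, Adamts18 and Adamts7 and the highest for Mmp8, Adamts15, Adamts3 and Adamtsl2.

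The Mmp cluster on chromosome 9 read low apart from Mmp8 and Mmp12. The other 7 genes had means below the lower quartile of all probe set means, with values from 2.02 to 4.53 over all lungs, a range that includes the 2.89 to 3.13 of Eif2s3y in lungs without Y-linked signal. These 7 comprise 6 of the genes with an AP-1 match printed above, together with Mmp20, the enamel protease, which has none. Mmp12, the remaining gene with a match, lay between the lower quartile and the median, and Mmp8, without a match, above the median. Differences among the 7 ran from -0.09 to 0.26. Mmp10 (stromelysin 2) had groups apart at 3.05 to 3.10 in null against 2.81 to 2.86 in wild-type lungs, a difference of 0.24 (95% interval 0.05 to 0.42), and Mmp1a also had groups apart with a difference of 0.12. At this brightness a difference cannot be read as a change in transcript. Mmp13 (collagenase 3), which cartilage makes as it matures, read 2.02 to 2.26 in every lung, the 2 with the highest cartilage markers included.

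**Figure D4:**
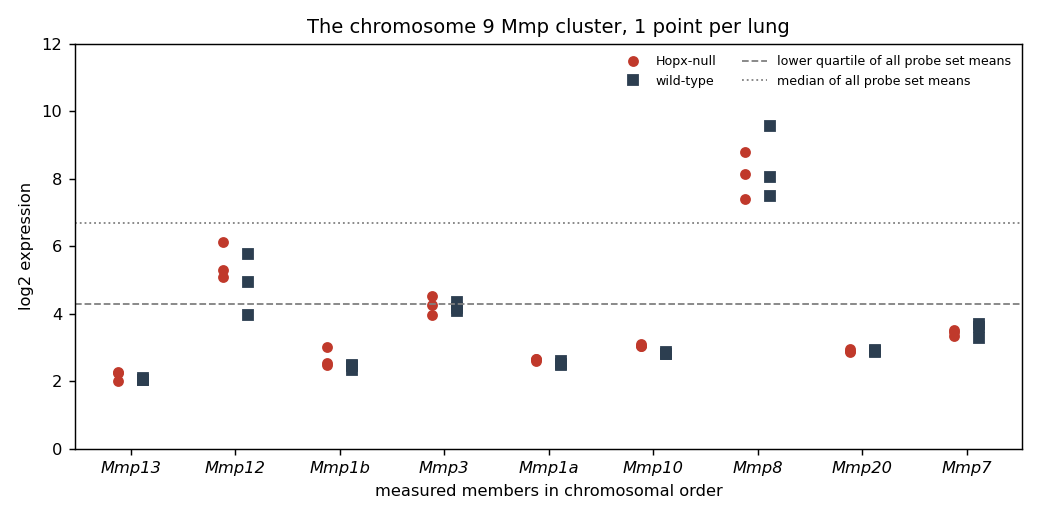
Log2 expression of the 9 measured Mmp genes of the chromosome 9 cluster in chromosomal order, 1 point per lung, with the lower quartile and the median of all probe set means as lines. The points of Mmp8 lie above the median in all lungs, those of Mmp12 lie mostly between the lines, and 7 genes lie around or below the lower quartile.

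Among the remaining Mmps, Mmp23, a membrane-bound Mmp released from its anchor by cleavage, read 10.45, 10.50 and 10.83 in null and 10.28, 10.77 and 10.03 in wild-type lungs. The groups overlapped, and the difference was 0.23 (95% interval -0.26 to 0.72). By role, positive differences were found in 2 of 2 gelatinases, 3 of 4 collagenases, 3 of 4 stromelysins and matrilysin, 3 of 4 membrane-type Mmps and 2 of 4 others. For the 18 Mmps in all, 13 were positive and 5 negative with a median of 0.16. However, 7 of these 18 were below the lower quartile.

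Proteoglycan-cleaving Adamts proteases cut versican and aggrecan, and 3 of 7 had positive and 4 negative differences with a median of -0.01. The largest difference of any member was at Adamts15, which read 9.83, 9.98 and 9.98 in null and 10.90, 9.91 and 11.33 in wild-type lungs. The null lungs were close together, whereas wild-type replicates 1 and 3 were higher and replicate 2 lay within the null range. The difference was -0.79 (95% interval -1.58 to 0.01, limma's adjusted p = 0.878). Leaving out wild-type replicate 3 gave -0.48, and leaving out replicate 2 of that genotype gave -1.19. Adamts1, a versicanase with anti-angiogenic activity, differed by 0.07, with wild-type replicate 2 lowest at 10.84 and the other lungs at 11.16 to 11.55. Adamts8, which neighbours Adamts15 on chromosome 9 (order from assembly GRCm38.p6), differed by -0.01 (95% interval -0.28 to 0.25).

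Probe sets of the same gene did not always give the same picture. Adamts4 (aggrecanase 1) differed by 0.16 at its brighter probe set with overlapping groups, while the dimmer probe set read 8.70, 8.59 and 8.44 in null and 8.46, 7.97 and 7.74 in wild-type lungs. That second difference was 0.52 (95% interval 0.07 to 0.98), with Hopx-null replicate 3 below wild-type replicate 1. Adamts9, which cleaves versican in development, differed by -0.09 at its brightest probe set and by 0.06 at its dimmest. In between, a probe set with groups apart read 9.04, 8.97 and 8.80 in null and 9.36, 9.07 and 9.39 in wild-type lungs, a difference of -0.33 (95% interval -0.62 to -0.04). Adamts5 (aggrecanase 2) gave -0.10, 0.15, 0.30 and 0.03 from brightest to dimmest. Of the 21 members with more than 1 probe set, 16 had all in 1 direction, and Adamts5, Adamts9, Adamts18, Mmp24 and Timp2 had probe sets in both. The additional probe sets of Adamts4, Adamts5 and Adamts9 were described after their values were seen.

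Adamts3 removes the amino propeptide of procollagen and was the only enzyme of that activity measured. It read 8.31, 8.28 and 8.79 in null and 8.62, 8.41 and 9.20 in wild-type lungs, with overlapping groups. The difference was -0.29 (95% interval -0.85 to 0.27), and -0.06 without wild-type replicate 3. It was -0.17 with the Y-linked covariate. Of the fibrillar collagen genes listed as substrates, Col1a1, Col1a2 and Col3a1 differed by -0.01, 0.08 and 0.04. Col2a1, also a cartilage marker, differed by -1.55 (95% interval -4.97 to 1.87) with overlapping groups.

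Of the other 7 Adamts proteases, 4 had positive and 3 negative differences with a median of 0.05. Adamts7, which cleaves cartilage oligomeric matrix protein, read 6.27, 6.47 and 6.44 in null and 5.83, 6.31 and 5.79 in wild-type lungs. Wild-type replicate 2 lay within the null range, and the difference was 0.42 (95% interval 0.04 to 0.79, limma's adjusted p = 0.878). Adamts18 read 4.68, 4.46 and 4.97 in null and 4.37, 5.12 and 3.22 in wild-type lungs. Its difference of 0.46 was -0.05 without wild-type replicate 3 and 0.90 with wild-type replicate 2 left out, and its other probe sets, below the lower quartile, gave -0.16 and -0.06. Adamts10, a fibrillin-binding protease, and Adamts12 differed by 0.05 and 0.07, whereas Adamts19 ranged from 5.62 to 7.62 among wild-type lungs alone.

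The Adamtsl genes, several of whose products bind fibrillin microfibrils, had 4 positive differences and 1 negative with a median of 0.20. Adamtsl3 read 7.57, 7.67 and 7.54 in null and 7.38, 7.28 and 7.02 in wild-type lungs. All null lungs were above all wild-type lungs, with means of 7.59 ± 0.07 (SD, n = 3) and 7.23 ± 0.19 (SD, n = 3). The difference was 0.36 (95% interval 0.09 to 0.64, limma's adjusted p = 0.878). It was 0.26 without wild-type replicate 3 and 0.21 with the Y-linked covariate. Adamtsl1 (punctin) read 8.88, 8.88 and 9.07 in null and 8.80, 8.69 and 8.74 in wild-type lungs, again apart, with a difference of 0.20 (95% interval -0.02 to 0.42). Its dimmer probe sets gave 0.49 and 0.12, both with overlapping groups.

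Adamtsl2, which binds fibrillin and latent TGF-beta binding protein and limits TGF-beta availability, was the exception in sign. Null lungs read 9.71, 9.70 and 10.08 and wild-type lungs 10.23, 9.79 and 10.49, so the groups overlapped. The difference of -0.34 (95% interval -0.82 to 0.13) was -0.18 without wild-type replicate 3 and -0.53 with wild-type replicate 2 left out. Adamtsl4 and Adamtsl5 differed by 0.04 and 0.22 with overlapping groups.

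Members varied more between lungs of a genotype than genes at large. The median residual SD was 0.21 for the 42 members against 0.15 for all genes, and 0.21 against 0.13 when only genes above the median of the arrays were taken. Mmp8 (0.91), Adamts19 (0.83), Adamts20 (0.82), Mmp12 (0.75) and Adamts18 (0.70) had the largest SDs, and Mmp10 (0.03) and Mmp20 (0.04), both near background, the smallest. Brighter members with a small SD were Adamtsl1 (0.08), Mmp24 (0.10) and Adamts8 (0.13).

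Other genes of the pathway gave no call either. Of 50 genes listed as activators, other inhibitors, related proteases and substrates, 47 were measured and 0 passed limma's adjusted threshold in either direction. Of these 47, 18 had positive and 29 negative differences with a median of -0.04, and 1 had an unadjusted p under 0.05. Among 9 activators, tissue plasminogen activator, Plat, differed by -0.37, the convertase Pcsk5 by 0.16 and the proMmp-activating convertase Furin by -0.03. In the group of 10 other inhibitors and binding partners, Spock2, a testican proteoglycan, differed by 0.35 with wild-type replicate 3 at 11.22 and the other lungs at 11.97 to 12.19. The membrane-anchored Mmp inhibitor Reck differed by 0.11.

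Among 12 related proteases, Adam12 differed by 0.35, Adam28 by -0.30 and the procollagen-processing Tll1 by 0.29, each with overlapping groups. The mean of Tll1 lay below the lower quartile, where a difference cannot be read as a change in transcript. The 16 substrates included the aggrecan gene Acan at -1.71, Col2a1 at -1.55 and Comp at -0.63. Comp read 4.71 to 4.80 in null against 5.03 to 5.57 in wild-type lungs. The groups overlapped at Acan (95% interval -3.62 to 0.20) and at Col2a1 (95% interval -4.97 to 1.87). Acan and Col2a1 are also in the cartilage list, and wild-type replicates 2 and 3 were highest for all 3 genes. The basement membrane collagens Col4a1 and Col4a2, which Mmp2 cleaves, differed by 0.00 and 0.01, and elastin, Eln, by -0.05. Versican, Vcan, differed by 0.20 (SE 0.15).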

How the data were processed

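Each of 6 arrays gave 1 column of log2 expression values as deposited by the authors. Per the submitters' processing notes, the tools were RMA and Partek 6.6, whose roles are not stated. The log base was inferred from the values' range, and RMA's equalising of arrays hides any shift common to most transcripts. After 64 control probe sets were left out, 45037 remained, of which 34945 named 1 gene by the platform annotation, 932 several and 9160 none. The genotypes were compared in R 4.3.3 using lmFit and eBayes of limma 3.58.1, and p-values were adjusted by Benjamini-Hochberg over all probe sets. No filter on dim probe sets was used. Intervals are 95% limma intervals and adjusted p under 0.05 was the threshold. Few arrays limit the precision: with 3 lungs a genotype, the smallest exact two-sided permutation p is 0.1. Each p-value sets a mean difference against the spread between these samples, and whether a sample was 1 embryo or a pool is not given.

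Members and lists were chosen with earlier results of these data known. Genes described by lung were all probe sets of Mmp2 and Mmp19, the 4 Timps, Mmp14, members apart between groups and above the median, and the 3 largest differences in each direction among Mmps and among Adamts with Adamtsl (mean above the lower quartile). Others were described from their role groups after their values were seen. RefSeq promoter windows (250 bases before to 50 after the start) matched 27 members; motifs were searched in the 250. The fit was tested on simulated data.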

Additional observations from a re-analysis of the deposited data

How the results depend on the processing

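No member was called by limma under any of the alternatives run: repeated quantile normalization, only probe sets above the median, trend and robust options, array weights, the replicate block, the Y-linked covariate, a threshold of 0.1, the mean of a gene's probe sets, or each lung left out. Members with an unadjusted p under 0.05 numbered 3 to 9. Probe sets called over the whole array were 2 in all lungs, 1 with the replicate block and 1 with the Y-linked covariate. With a lung left out they numbered 12 without Hopx-null replicate 1, 23 without wild-type replicate 1 and 1 without any other. The 23 included probe sets of Xist and of the Y-linked genes Eif2s3y, Uty and Kdm5d. In that fit both remaining wild-type lungs had Y-linked signal and no null lung did. Same-numbered lungs had deviations correlated at -0.096, -0.121 and 0.183, within the -0.148 to 0.237 of other lung pairs across genotypes. No pairing by number was visible, but 3 lungs a genotype cannot exclude one. The block changed no member's call. The members' median ranged from 0.031 to 0.131 without a lung and from 0.04 to 0.10 otherwise.

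Some differences changed sign. With the Y-linked covariate Timp2 was -0.10, Timp4 0.16, Mmp8 0.0559 and Mmp12 -0.26, and with array weights Timp1 was -0.0145. Leaving out 1 lung, the ranges were -0.14 to 0.13 for Timp1, -0.0543 to 0.146 for Timp2, -0.17 to 0.01 for Timp3, -0.23 to 0.11 for Timp4, -0.144 to 0.0602 for Mmp14, -0.69 to 0.34 for Mmp8 and -0.0457 to 0.904 for Adamts18. The cause was not tested. Both probe sets of Mmp2 and of Mmp19, Adamts15, Adamts7, Adamts3, Adamtsl1, Adamtsl2, Adamtsl3, Mmp11 and Mmp24 kept their sign in all alternatives run.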
